A study of Mus musculus with 6 samples.

Results

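The 10 enzymes that build the branches of N-glycans, or compete for them, were followed in tumour-infiltrating T cells sorted by how much of the lectin L-Pha they bound. The enzymes were the N-acetylglucosaminyltransferases Mgat1, Mgat2, Mgat3, Mgat4a, Mgat4b and Mgat5 and the Golgi mannosidases Man1a, Man1a2, Man2a1 and Man2a2. They were taken by name, and all 10 had a row among the 43629 genes of the count table. L-Pha recognises N-glycans with the branch that Mgat5 adds.

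Both groups came from C57BL/6 mice that carried subcutaneous B16-Ova tumours, a melanoma line that expresses ovalbumin, and the tumours were taken on day 14. The L-Pha low group and the L-Pha high group had 3 libraries each, named here by group and by the number in their labels. The series' design speaks of pooled tumours and of CD8+, TCR+ cells, while the sample protocol names a sort on T cell receptor beta chain and CD3. No genotype or drug differed between the groups, and separate pools or animals are not stated for the 3 libraries within a group, so the spread between them may be technical.

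An N-glycan reaches the Golgi as a mannose-rich tree. Man1a and Man1a2 cut mannoses off it, Mgat1 adds the first N-acetylglucosamine, Man2a1 and Man2a2 then remove further mannoses, and Mgat2 starts the other arm. Mgat4a, Mgat4b and Mgat5 add further branches, and Mgat3 adds the bisecting residue, which hinders later branching by the other enzymes. In T cells, the branches made by Mgat5 are extended into ligands of galectins, and this lattice is known to raise the threshold for activation through the T cell receptor.

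Library totals ran from 2610729 to 3521117 counts, and the 10 enzymes together held 861 to 1383 counts per library. Levels are CPM (counts scaled to a common library size) adjusted by TMM, a method that scales libraries on the bulk of their genes, and 1 count was worth 0.266 to 0.373 CPM. The libraries were mixed. The 13 T cell markers, none at 0 in any library, summed to 306 to 931 CPM in L-Pha low and 430 to 791 CPM in L-Pha high. The 9 melanoma markers summed to 9715 to 15487 CPM in L-Pha low and 10803 to 16178 CPM in L-Pha high, and 10 macrophage markers to 142 to 251 CPM and 202 to 304 CPM. Cd8a had 153 to 625 counts per library and Cd4 had 0 to 4, so the CD8 label matched its defining markers. T cell sums were lowest, and melanoma sums highest, in L-Pha low 3 and L-Pha high 3. Dct alone, a pigment enzyme, held 80.4% to 89.2% of each melanoma sum. The other 8 markers summed to 1745, 2004 and 1999 CPM in L-Pha low 1 to 3 and to 1792, 1457 and 2049 CPM in L-Pha high 1 to 3, so without Dct L-Pha low 3 was not above L-Pha low 2. In such bulk libraries, fewer cells of a type and less RNA per cell cannot be told apart, and the enzymes' RNA was not assigned to a cell type.

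None of the 10 enzymes passed the test of a difference between L-Pha high and L-Pha low. By edgeR's quasi-likelihood test with Benjamini-Hochberg adjustment over 11183 genes, 0 enzymes were called at an adjusted p of 0.05, where 0.00894% of all genes were called. At an unadjusted p under 0.05 there were also 0 of 10 by edgeR, DESeq2 and limma-voom, where edgeR had 3.78% of all genes. Point values were higher in L-Pha high for 4 enzymes and lower for 6, with a median log2 fold change of -0.11 beside -0.01 over all genes tested. With scaling by library totals alone 5 were higher and 5 lower, with a median of 0.01 beside 0.10 over all genes.

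**Figure D1:**
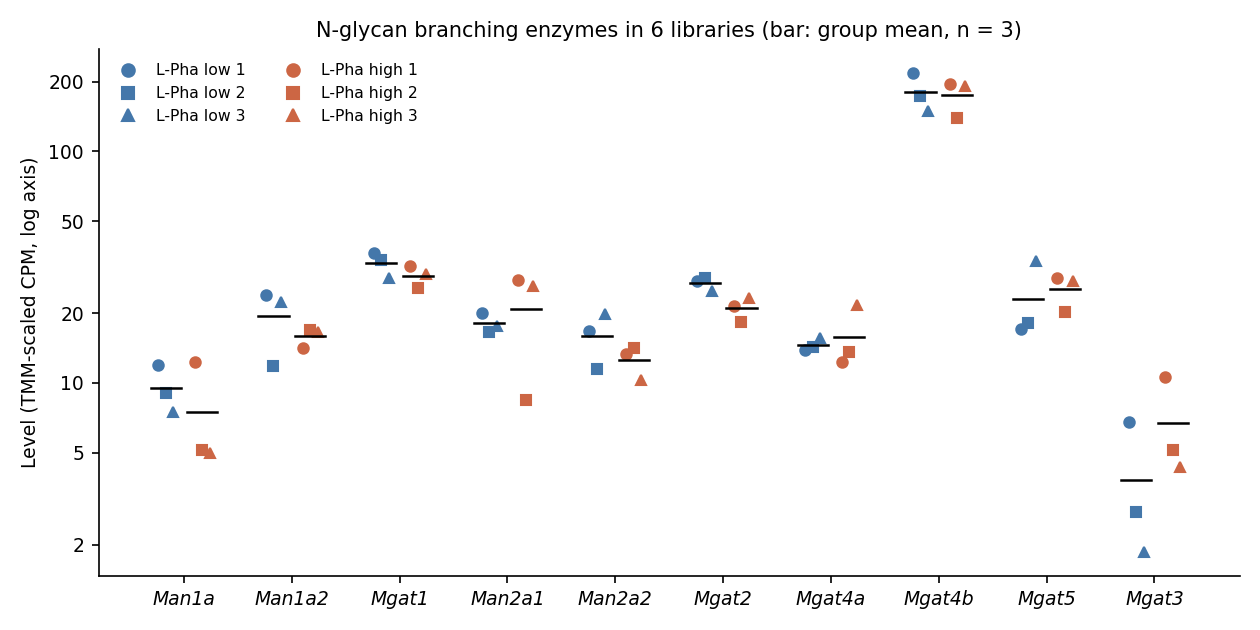
Level of each enzyme in TMM-scaled CPM on a log axis, in pathway order with the bisecting enzyme Mgat3 last; each point is 1 of the 6 libraries and each bar a group mean (n = 3). Mgat4b stood at 140 to 218 CPM, above every other enzyme in all 6 libraries. Mgat2 alone had groups that did not overlap, where 8.41% of all genes tested had such groups.

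Mgat5 itself, the enzyme that makes the branch L-Pha binds, lies on the plus strand of GRCm38 chromosome 1, 127205015 to 127488336 (ENSMUSG00000036155). It stood at 17.2, 18.1 and 33.6 CPM in L-Pha low 1, 2 and 3, from 53, 52 and 90 counts. In L-Pha high 1, 2 and 3 it stood at 28.5, 20.2 and 27.7 CPM, from 107, 67 and 83 counts. The groups overlapped, because the highest Mgat5 level of all was in L-Pha low 3. The log2 fold change (L-Pha high minus low) was 0.16 with a standard error (SE) of 0.318, and its 95% interval ran from -0.53 to 0.84, or 0.694-fold to 1.79-fold. These libraries therefore left room for a level in L-Pha high as low as 0.694-fold or as high as 1.79-fold that of L-Pha low. They did not show that Mgat5 was the same in both groups.

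The Mgat5 difference moved with single libraries. Leaving out L-Pha low 3 gave a log2 fold change of 0.53, L-Pha low 2 one of 0.0034 and L-Pha low 1 one of -0.015. Without L-Pha high 1, 2 or 3 it was 0.065, 0.29 or 0.091, and no version passed (smallest edgeR adjusted p over its alternatives 0.548). L-Pha low 3 also had the lowest T cell marker sum, 306 CPM against 812 and 931 CPM in L-Pha low 1 and 2, and the highest macrophage sum of its group, 251 CPM. Within L-Pha high, Mgat5 was lowest in L-Pha high 2. That library had the highest T cell sum of its group (791 CPM) and the lowest macrophage sum (202 CPM). Endothelium sums (4 markers) went as the macrophage sums did. They were highest of L-Pha low in L-Pha low 3 (60.4 CPM) and lowest of L-Pha high in L-Pha high 2 (29.8 CPM). Fibroblast and neutrophil sums did so only within L-Pha high, and B cell sums only within L-Pha low. Melanoma sums ran otherwise there, with 10803 CPM in L-Pha high 1, where Mgat5 was highest, and 13537 CPM in L-Pha high 2. The part of other cell types in the Mgat5 values was not tested.

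**Figure D2:**
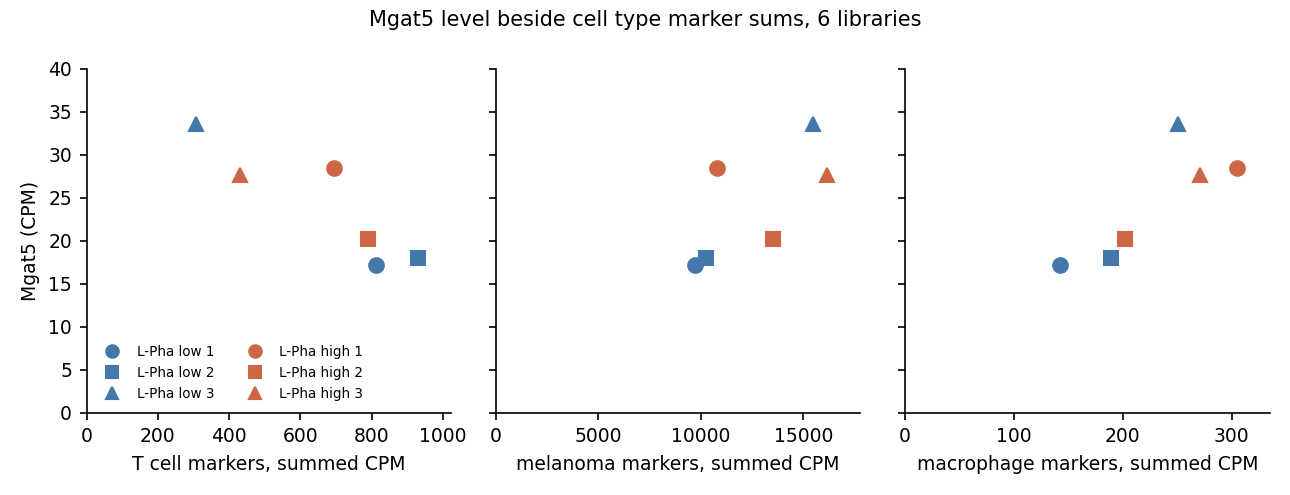
Mgat5 level in CPM against the summed CPM of fixed markers of T cells, melanoma cells and macrophages, with 1 point per library. Mgat5 was above 25 CPM in 3 libraries (28.5, 27.7 and 33.6), a cut not set in advance. These had the 3 lowest T cell sums and the 3 highest macrophage sums of the 6. The 4 endothelium markers, not drawn, split in the same way (33.8, 53.6 and 60.4 CPM against 29.8 to 32.0 CPM). Sums of B cell, fibroblast, neutrophil and NK cell markers did not. Neither did melanoma sums, with 10803 CPM at a Mgat5 level of 28.5 and 13537 CPM at 20.2. Without Dct these became 1792 and 1457 CPM, but L-Pha low 2 (Mgat5 18.1) had 2004 CPM.

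The early mannosidases Man1a and Man1a2, which prepare the substrate of Mgat1, had lower point values in L-Pha high, with intervals that included 0. Man1a (chromosome 10, 53904788 to 54075796, minus strand) stood at 11.97, 9.03 and 7.46 CPM in L-Pha low 1 to 3 and at 12.3, 5.12 and 5.00 CPM in L-Pha high 1 to 3. L-Pha high 1 lay above all of L-Pha low, and the other L-Pha high libraries below it. Its log2 fold change was -0.34 (95% interval -1.26 to 0.59), -0.90 without L-Pha high 1, and -0.13 to -0.12 on leaving out any 1 of L-Pha low 1, L-Pha high 2 or L-Pha high 3. Man1a2 (chromosome 3, 100562208 to 100685503, minus strand) stood at 23.9, 11.8 and 22.4 CPM in L-Pha low and at 14.1, 16.9 and 16.7 CPM in L-Pha high. All 3 L-Pha high libraries lay inside the range of L-Pha low, and Man1a2 had a log2 fold change of -0.29 (95% interval -0.99 to 0.41). Leaving out L-Pha low 2 moved it to -0.55, L-Pha low 3 to -0.17 and L-Pha low 1 to -0.10.

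Mgat1 and Mgat2 start the arms of the glycan and varied least of the 10 over the 6 libraries, by 1.42-fold and 1.55-fold from the lowest to the highest. Mgat1 (chromosome 11, 49244191 to 49263030, plus strand) ranged from 25.6 to 36.2 CPM over the 6 libraries, with 36.2, 34.0 and 28.3 CPM in L-Pha low and 32.0, 25.6 and 29.6 CPM in L-Pha high. The groups overlapped, and the log2 fold change was -0.18 (95% interval -0.72 to 0.37), with -0.27 when L-Pha low 3 was left out and -0.10 when L-Pha low 1 or L-Pha high 2 was. Mgat2 (chromosome 12, 69184157 to 69186770, plus strand) stood at 27.5, 28.5 and 25.0 CPM in L-Pha low 1 to 3 and at 21.6, 18.4 and 23.3 CPM in L-Pha high 1 to 3. Every L-Pha high library was below every L-Pha low library, which held for 1 of the 10 enzymes in either direction, where 8.41% of all genes tested had groups that did not overlap and 4.18% had L-Pha high below. The difference did not pass (log2 fold change -0.36, SE 0.264, 95% interval -0.92 to 0.21, edgeR adjusted p = 1.00), and its point value stayed between -0.48 and -0.24 over its 14 alternatives.

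Man2a1 and Man2a2 catalyse the same trimming step and had point values on opposite sides of 0. Man2a1 (chromosome 17, 64600736 to 64755110, plus strand) stood at 20.1, 16.7 and 17.5 CPM in L-Pha low and at 27.7, 8.44 and 26.3 CPM in L-Pha high. L-Pha high held both the highest values and the lowest, the latter in L-Pha high 2, from 28 counts. The log2 fold change of Man2a1 was 0.20 (95% interval -0.63 to 1.03), 0.57 when L-Pha high 2 was left out, 0.0041 when L-Pha high 3 was and -0.065 when L-Pha high 1 was. Man2a2 (chromosome 7, 80349098 to 80371375, minus strand) stood at 16.8, 11.5 and 19.8 CPM in L-Pha low and at 13.3, 14.2 and 10.3 CPM in L-Pha high. These overlapped, with a log2 fold change of -0.34 (95% interval -1.04 to 0.36). For Man2a2, leaving out L-Pha low 2 gave -0.54, L-Pha low 3 gave -0.16 and L-Pha high 3 gave -0.22, and leaving out both libraries numbered 3 gave -0.041.

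Mgat4b was by far the most counted of the enzymes and Mgat4a, which adds the same branch, was counted far less. Mgat4b (chromosome 11, 50210890 to 50235103, plus strand) stood at 218, 174 and 150 CPM in L-Pha low and at 196, 140 and 193 CPM in L-Pha high, from 3352 counts in all. Its groups overlapped, and its interval was the narrowest of the 10 (log2 fold change -0.04, 95% interval -0.54 to 0.47, or 0.686-fold to 1.39-fold). The point value of Mgat4b was 0.081 with library totals alone, and leaving out L-Pha low 1 gave 0.12 and L-Pha high 2 gave 0.096. Mgat4a (chromosome 1, 37439340 to 37541016, minus strand) stood at 13.9, 14.2 and 15.7 CPM in L-Pha low and at 12.3, 13.6 and 21.7 CPM in L-Pha high. The L-Pha low libraries lay close together and inside the range of L-Pha high, with a log2 fold change of 0.11 (95% interval -0.58 to 0.80), or -0.18 without L-Pha high 3. Leaving out L-Pha high 1 gave 0.27 for Mgat4a, and L-Pha high 2 gave 0.19.

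Mgat3, the bisecting enzyme that competes with branching, had the largest point difference of the 10 and the fewest counts. It lies on chromosome 15, 80173721 to 80215519, plus strand. L-Pha low 1, 2 and 3 held 21, 8 and 5 counts (6.80, 2.78 and 1.86 CPM), and L-Pha high 1, 2 and 3 held 40, 17 and 13 (10.7, 5.12 and 4.33 CPM). L-Pha low 1 was above both L-Pha high 2 and L-Pha high 3, so the groups overlapped. At each library number L-Pha high was above L-Pha low, though the numbers are not stated to be pairs. The log2 fold change was 0.80 (SE 0.547, 95% interval -0.37 to 1.98, or 0.773-fold to 3.94-fold; edgeR adjusted p = 1.00). With a replicate block in edgeR it was 0.85, with an unadjusted p of 0.0684 and an adjusted p of 0.642. Leaving out L-Pha high 1 gave 0.29, L-Pha low 3 gave 0.49 and L-Pha low 1 gave 1.52, and the last had the smallest unadjusted p of any enzyme under any alternative (0.0205, edgeR adjusted p = 1.00). Mgat3 had under 10 counts in both L-Pha low 2 and L-Pha low 3, so it passed the filter on low counts mainly through L-Pha high.

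**Figure D3:**
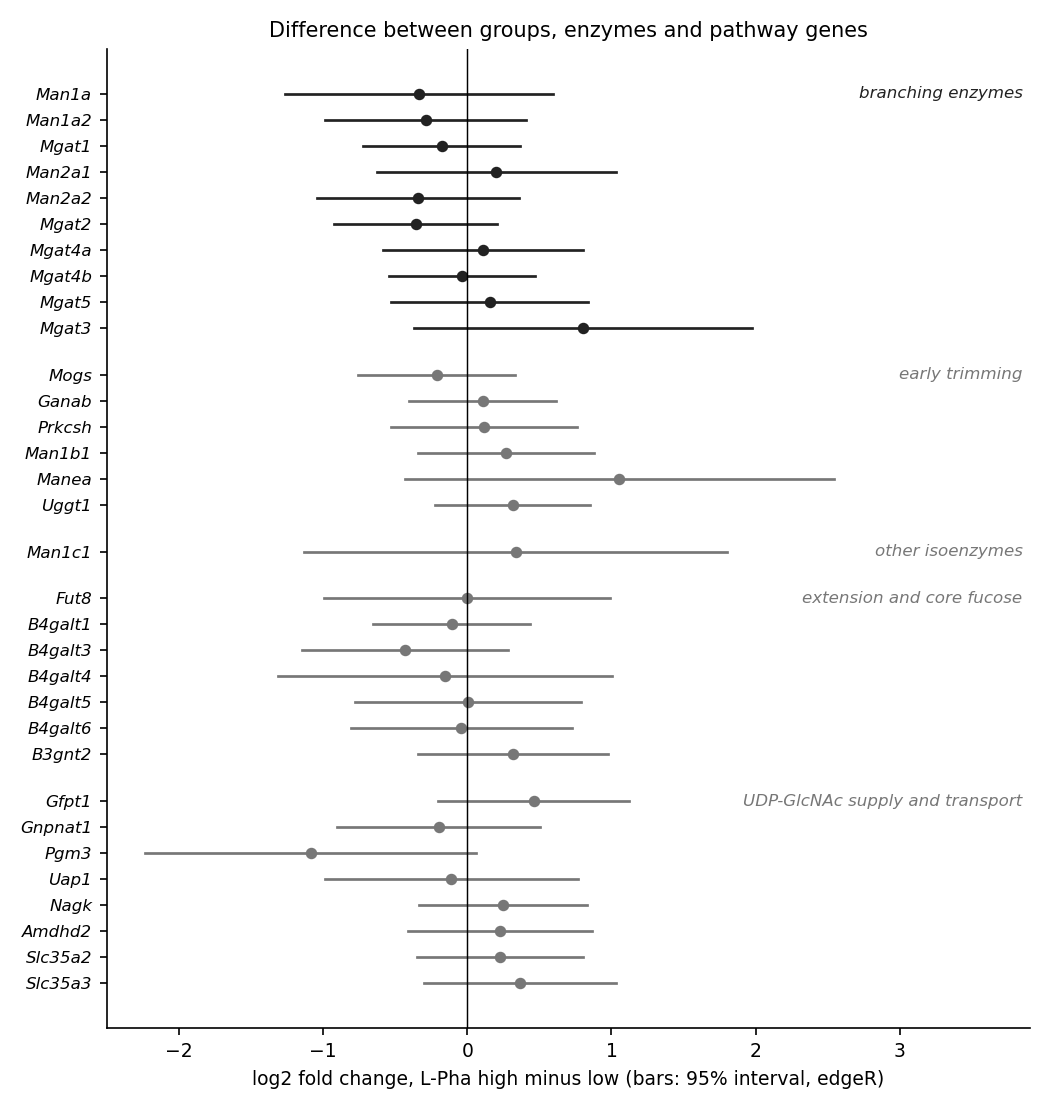
Log2 fold change (L-Pha high minus L-Pha low) with its 95% interval from edgeR for the 10 enzymes (black) and the 22 tested genes of 4 lists of the surrounding pathway (grey). All 32 intervals include 0; the widest of the 10 enzymes is that of Mgat3, from -0.37 to 1.98.

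Among themselves the enzymes differed far more in level than either group differed from the other. The kit primes at the poly(A) tail, so reads per transcript are meant not to grow with its length, and CPM was compared beside CPM divided by annotated exon length (CPM per kb). On the CPM scale Mgat4b had a mean level of 178 over the 6 libraries, and the next level, that of Mgat1, was 31.0. The Mgat4b and Mgat1 ranges did not overlap. From Mgat1 down to Mgat3 at 5.26 CPM, each enzyme's range overlapped that of the next in order, and Mgat5 (24.2) and Mgat2 (24.0) kept that order in 4 of 6 libraries. On the per-length scale Mgat4b again came first in 6 of 6 libraries, at 65.6 CPM per kb, followed by Mgat2 at 9.20 and Mgat1 at 6.54 CPM per kb, both above all others in mean level. Mgat5 stood at 2.35 CPM per kb, in overlap with Man2a1 (2.69) and Man1a2 (2.21). Man1a, at 0.935 CPM per kb, was last on this scale, where its neighbour Mgat3 stood at 1.13 CPM per kb.

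The balance within pairs of enzymes that share a step or compete was measured as a share of counts, which does not depend on how libraries are scaled. Mgat4a made up 7.76% of the 3634 counts of Mgat4a plus Mgat4b, with 5.88% to 10.1% in single libraries. The mean Mgat4a share was 8.28% ± 2.17 in L-Pha high and 7.68% ± 1.74 in L-Pha low (SD, n = 3 each; exact two-sided permutation p = 0.8).

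Man1a made up 46.5%, 23.3% and 23.1% of the counts of Man1a plus Man1a2 in L-Pha high 1, 2 and 3 and 33.3%, 43.3% and 25.0% in L-Pha low 1, 2 and 3, with means of 30.9% ± 13.4 and 33.9% ± 9.18 (SD, n = 3 each; exact two-sided permutation p = 0.8). Man2a1 made up 67.5%, 37.3% and 71.8% of the counts of Man2a1 plus Man2a2 in L-Pha high and 54.4%, 59.3% and 47.0% in L-Pha low. The exact 95% binomial interval of the Man2a1 share in L-Pha high 2 (26.4% to 49.3%) lay below those of L-Pha high 1 (59.5% to 74.8%) and L-Pha high 3 (62.4% to 80.0%). The Man2a1 means were 58.9% ± 18.8 and 53.5% ± 6.17 (SD, n = 3 each; exact two-sided permutation p = 0.7).

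Mgat5 was set against its competitor Mgat3 in the same way. Mgat5 made up 72.8%, 79.8% and 86.5% of their joint counts in L-Pha high 1, 2 and 3 and 71.6%, 86.7% and 94.7% in L-Pha low 1, 2 and 3. The means were 79.7% ± 6.84 and 84.3% ± 11.7 (SD, n = 3 each), a difference of -4.67 percentage points that was 0.526 without L-Pha low 3 (exact two-sided permutation p = 0.6 with all libraries). With 3 libraries against 3 the smallest possible p of this test is 0.1, and adjusted over the 4 shares all were 0.8. The groups overlapped in all 4 shares. The intervals cover counting error only and treat every read as independent. No molecular identifiers are named for these reads, so repeated copies of a molecule cannot be told apart and the intervals may be too narrow.

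**Figure D4:**
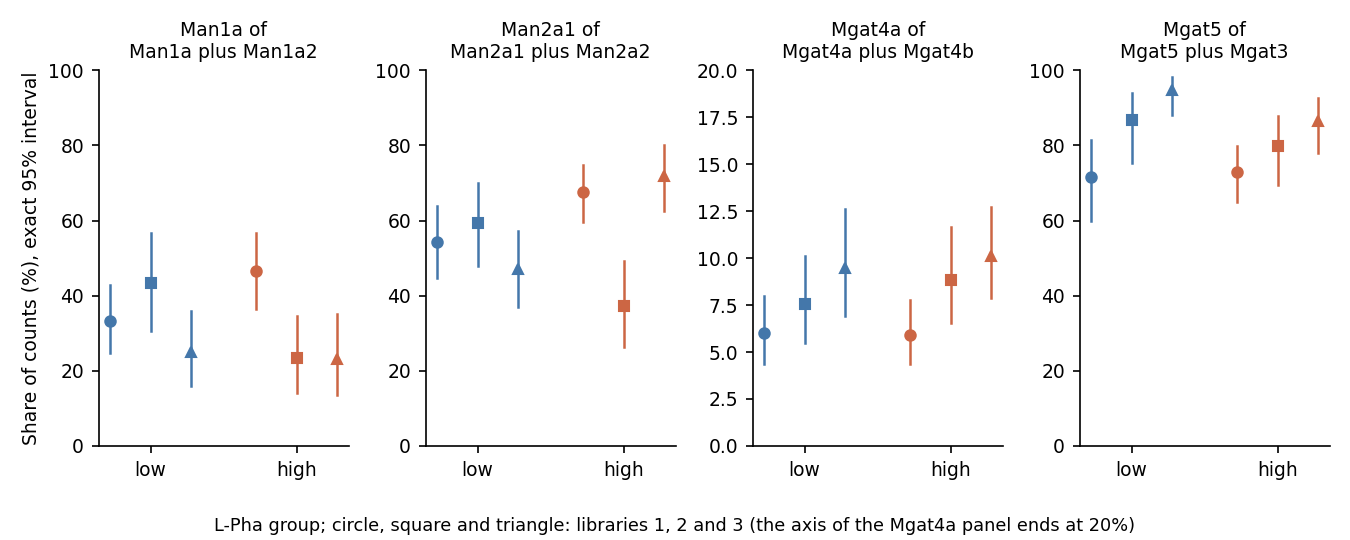
Share of counts in percent, with exact 95% binomial intervals, for Man1a, Man2a1, Mgat4a and Mgat5 within the named pairs, in 3 L-Pha low (blue) and 3 L-Pha high (orange) libraries. Mgat4a stayed between 5.88% and 10.1%, while Man2a1 ran from 37.3% to 71.8%, both in L-Pha high.

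Further isoenzymes of these steps were scarce. Mgat5b, a relative of Mgat5, and Mgat4d, known as an inhibitor of Mgat1, had 0 counts in all 6 libraries, which allows up to 3 counts per library. Mgat4c had 3 counts in L-Pha low 2, 1 count in L-Pha high 2 and 0 elsewhere. Man1c1, a further mannosidase of the Man1a step, had 1, 13 and 9 counts in L-Pha low 1 to 3 and 19, 8 and 8 counts in L-Pha high 1 to 3. Man1c1 had a log2 fold change of 0.34 (95% interval -1.13 to 1.80), which was -0.20 when L-Pha low 1 was left out, -0.088 when L-Pha high 1 was and 0.92 when L-Pha low 2 was.

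The genes around the branching steps gave the same count of calls. Of 28 genes in 4 lists 22 were tested, and 0 were called higher and 0 lower by edgeR over all genes. At an unadjusted p under 0.05 there were also 0 by edgeR, DESeq2 and limma-voom. With a replicate block in edgeR 1 of the 22 was under 0.05 (Gfpt1), where 925 of all 11183 genes were. Without L-Pha low 3 there were 3 of 22, beside 1262 of 11570 genes. Without L-Pha low 1 there was 1 of 23 (427 of 11589 genes), and without L-Pha low 2 there was 1 of 24 (323 of 11543). Without both libraries numbered 3 there were 2 of 21 (733 of 11328), and the other alternatives had 0. Point values were higher in L-Pha high for 13 and lower for 9, with a median of 0.11 (-0.02 without L-Pha high 1) beside -0.01 over all genes tested. The 6 genes of early trimming, which act on the glycan before or around the Man1a step, had a median of 0.19. The members of that list with the smallest p were Manea, a Golgi endomannosidase with 2 to 23 counts per library (log2 fold change 1.05, 95% interval -0.43 to 2.54, with 0.44, 0.65 and 1.84 on leaving out L-Pha high 1, L-Pha low 1 and L-Pha low 3), and Uggt1, the folding sensor of the endoplasmic reticulum (0.31, 95% interval -0.22 to 0.85, and 0.14 or 0.16 when L-Pha low 2 or L-Pha high 2 was left out).

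The 7 tested genes of extension and core fucose, not all of which act on the finished branches, had a median log2 fold change of -0.04. B4galt3, a galactosyltransferase, had one of -0.43 (95% interval -1.15 to 0.28, and -0.66 without L-Pha high 3), and B3gnt2, which extends branches into poly-N-acetyllactosamine, one of 0.32 (95% interval -0.34 to 0.97). Leaving out L-Pha low 3 moved B3gnt2 to 0.62, L-Pha high 2 to 0.18 and L-Pha low 2 to 0.043.

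The list of UDP-GlcNAc supply and transport, named for the sugar donor of all the Mgat enzymes, had a median log2 fold change of 0.23. Of its 8 tested members 5 had higher and 3 lower point values. Not every member makes or carries UDP-GlcNAc, and the list also held Slc35a2, a UDP-galactose transporter whose own value was 0.23. Pgm3, an enzyme of UDP-GlcNAc synthesis, stood at 4.21, 9.03 and 3.36 CPM in L-Pha low and 2.66, 1.81 and 3.33 CPM in L-Pha high, from 6 to 26 counts. The Pgm3 groups did not overlap, by a margin smaller than 1 count. Its log2 fold change was -1.08 (95% interval -2.23 to 0.06, edgeR adjusted p = 1.00), or -0.55 without L-Pha low 2. Pgm3 passed the filter on low counts mainly through L-Pha low, with 13, 26 and 9 counts there and 10, 6 and 10 in L-Pha high. In Slc35a2, which is named here after its values were seen, the groups did not overlap in the other direction. It stood at 18.8 to 19.1 CPM in L-Pha low and 20.7 to 23.2 CPM in L-Pha high (log2 fold change 0.23, 95% interval -0.35 to 0.80). Groups that did not overlap made up 8.41% of all genes tested. Gfpt1, the rate-limiting enzyme of that pathway, stood at 73.5, 94.8 and 178 CPM in L-Pha low 1, 2 and 3 and at 122, 170 and 184 CPM in L-Pha high 1, 2 and 3. L-Pha low 3 was again the library of its group that stood with L-Pha high, as for Mgat5. The log2 fold change of Gfpt1 was 0.46 (95% interval -0.20 to 1.12, edgeR adjusted p = 1.00). With a replicate block in edgeR it was 0.54, with an unadjusted p of 0.0149 and an adjusted p of 0.45. Leaving out L-Pha low 3 gave 0.92, with an unadjusted p of 0.00249 and an edgeR adjusted p of 0.216, and leaving out L-Pha low 1 gave 0.22.

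**Figure D5:**
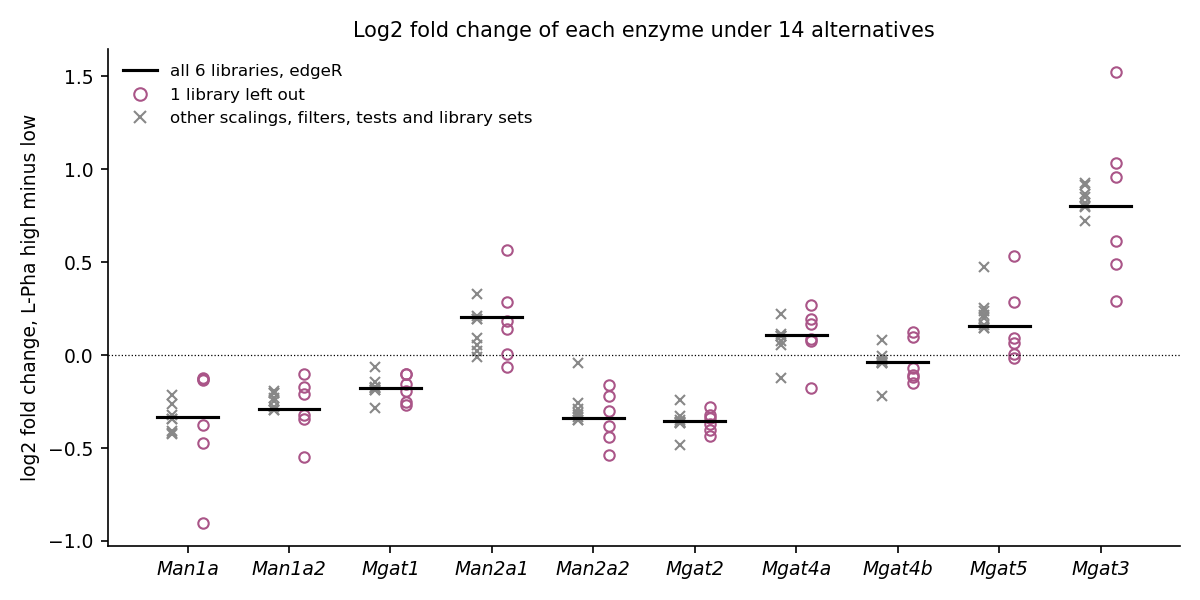
Log2 fold change (L-Pha high minus L-Pha low) of each enzyme with all 6 libraries by edgeR (black line), with 1 library left out (circles) and under 8 other scalings, filters, tests and library sets (crosses). Mgat2 stayed between -0.48 and -0.24, while Mgat3 ran from 0.29 to 1.52.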

How the data were processed

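RNA from 6 libraries was measured by 3' mRNA sequencing (QuantSeq). In the deposited table, counts are whole numbers that the authors obtained using featureCounts 1.5.0-p3 with Ensembl release 78 models (GRCm38), per the file headers: sense strand, multi-mapping reads counted at each place, reads given to every gene they overlap. The submitters' processing notes name HISAT2 2.1.0 and cutadapt 1.7, and hg19 as a build, which differs from the mouse build of the table; coordinates follow the table. The authors' deposited log2 table (how it was made is not given in the sources used here) served 1 alternative. Symbols came from GENCODE M21, which named 97.3% of the identifiers.

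Of the 10 enzymes 0 shared same-strand exons with another gene, and at most 0.596% of any enzyme's transcript 50-mers (Man2a2) occurred in another gene's transcripts, so shared reads touch them little. Mgat5 overlaps Tmem163 by 152 exon bases on the opposite strand, which sense-strand counting keeps apart.

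Counts were filtered (filterByExpr), TMM-scaled and tested with edgeR 4.0.16 in R 4.3.3 (robust quasi-likelihood, two-sided, no covariate beside group, threshold 0.05). SE and 95% intervals derive from the F statistic. Shares were tested by exact permutation, with Clopper-Pearson intervals. The fit was tested on simulated data. Alternatives were other size factors, library totals, no filter, DESeq2 1.42.0, limma-voom (limma 3.58.1), a replicate block, and leaving out each library. One more, without both libraries numbered 3, was chosen after seeing the data. The text names all 10 enzymes, the 2 genes of each pathway list with the smallest p, and all further isoenzymes. Members and lists were chosen with earlier results of these data known.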

Additional observations from a re-analysis of the deposited data

How the results depend on the processing

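Under all 14 alternatives 0 of the 10 enzymes and 0 of the tested pathway genes were called, with a smallest adjusted p of 0.548 for the enzymes and 0.216 for the named pathway genes. Calls over all genes numbered 1, and 1 with DESeq2's size factors in edgeR. They numbered 0 with library totals alone, 47 with no filter on low counts, 30 with DESeq2, 0 with limma-voom, 0 with the deposited log2 table, 0 to 8 with 1 library left out (8 without L-Pha low 3) and 0 without both libraries numbered 3; unadjusted p under 0.05 numbered 412, 865, 363, 421, 540, 253 to 1262 and 733. The causes were not tested.

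A replicate block called 43 genes, and 0 of the enzymes, with 925 genes at an unadjusted p under 0.05. The numbers are not stated to be pairs. Deviations of same-numbered libraries correlated at 0.368, 0.0825 and 0.467 over genes, and those of unlike numbers at -0.44 to 0.126. Each L-Pha high library correlated best with the L-Pha low library of its number, but L-Pha low 2 correlated better with L-Pha high 1 (0.126).

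Of the 10 enzymes 6 kept their sign under all alternatives. Signs turned for Mgat4a (range -0.18 to 0.27 with 1 library left out, -0.12 lacking both numbered 3), Mgat4b (-0.15 to 0.12, and 0.081 with library totals alone), Mgat5 (-0.015 to 0.53) and Man2a1 (-0.065 to 0.57, -0.012 lacking both numbered 3), and outside the 10 for Man1c1 (-0.20 to 0.92). With 1 library left out, the difference in share, in percentage points, ran from -10.7 to 1.78 for Man1a, -1.12 to 16.1 for Man2a1, -0.313 to 1.80 for Mgat4a and -11.0 to 0.526 for Mgat5. Library totals alone moved the median of all genes from -0.01 to 0.10. Mgat3 had the fewest counts of the 10, 5 to 40 per library.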
